A study of Saccharomyces cerevisiae and Kluyveromyces lactis with 95 samples.

Results

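The comparison concerned basal expression, that is, the level of an mRNA without drug, in 2 yeasts whose lineages parted before the whole genome duplication that the ancestor of *Saccharomyces cerevisiae* went through and the ancestor of *Kluyveromyces lactis* did not. *S. cerevisiae* ferments glucose even in air and holds down respiration while it does so, whereas *K. lactis* respires more of its sugar and can grow on lactose. Genes matched one-to-one between the yeasts can be set side by side as ortholog pairs, though a matched gene may still have close copies in its genome. Members were the *K. lactis* genes whose orthology column named a single *S. cerevisiae* gene of the deposited expression table, and each pair was identified by its *S. cerevisiae* symbol. There were 3802 such pairs among 5244 *K. lactis* genes and 5727 *S. cerevisiae* genes. A further 520 *K. lactis* genes named several *S. cerevisiae* genes, mostly ohnologs (copies left by the genome duplication), and 922 named none of the table, so both kinds were left out.

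Of 95 samples in the series, the main comparison used 4 *S. cerevisiae* and 4 *K. lactis* cultures with DMSO and no deletion, numbered 1, 2, 3 and 2017 in both species, and values below follow that order. The *S. cerevisiae* strain was W303 *MATa* (*leu2*, *his3*, *trp1*, *ura3*, *can1*) with gatekeeper mutations in its catalytic subunits of protein kinase A (PKA), and the methods, though not the strain list, add a fused *NHP6A*-iRFP nuclear marker. The *K. lactis* strain was *MATa* with *nej1*, *trp1*, *leu2*, *metA1* and *uraA1* alleles, replaced silent mating loci and gatekeeper mutations in both of its catalytic subunits. These PKA-AS kinases are open to the inhibitor 1-NM-PP1 but were untreated here. All cultures grew exponentially in YPD, a rich glucose medium, at 30°C and received DMSO, the solvent of the inhibitor, for 50 min. Each species is 1 strain, so species, strain background, genome and gene annotation cannot be told apart. PKA-WT strains without the gatekeeper mutations (3 *S. cerevisiae* and 2 *K. lactis* cultures with DMSO), PKA-AS strains that lacked the stress regulators *MSN2* and *MSN4* (ΔMsn2/4), the regulators *RPH1* and *GIS1* (ΔRph1/Gis1), or all of them, and PKA-AS cultures with 3 uM 1-NM-PP1 (4 per species) were used to see whether the differences recurred. The *K. lactis* deletions removed the orthologs that those factors share.

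Expression was read by QuantSeq, which sequences 1 fragment near the 3′ end of each polyadenylated RNA, so counts are proportional to molecules and levels of different genes can be compared without a length correction. Genes received 1451057 to 3351011 counts per *S. cerevisiae* library and 1478486 to 3573798 per *K. lactis* library. The pairs held 58.2 to 63.1% of these in the *S. cerevisiae* libraries and 53.0 to 56.1% in those of *K. lactis*. Levels are CPM over the pairs (counts divided by the TMM-scaled total of the library in units of 1e6), differences are on the log2 scale as *K. lactis* minus *S. cerevisiae*, and a pair was called where the difference passed 2 on that scale with an adjusted p under 0.01. As a share of gene counts and unassigned reads together, reads outside any counted region were 3.81 to 6.07% in *S. cerevisiae* libraries. They were 9.26 to 12.0% in those of *K. lactis*. Ambiguous reads were 2.63 to 3.01% against 0.0545 to 0.0729%, and reads that aligned to several places 6.51 to 8.68% against 0.848 to 1.22%. A level in 1 species therefore depends also on whether the counted region holds the real 3′ end of that gene, which the counts alone cannot tell apart from expression.

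Within *K. lactis*, culture 3 stood apart, with a mean rho of 0.917 with the other 3 against 0.945 to 0.956, and it lay nearer than they did to the 1-NM-PP1 libraries (rho 0.647 against 0.517 to 0.566). Among the *S. cerevisiae* libraries, culture 1 agreed least with its group (0.937). Both strains are *MATa*. *STE2*, the alpha-factor receptor of *MATa* cells, had 495, 438, 632 and 263 counts in *S. cerevisiae* against 1, 0, 0 and 1 in *K. lactis*, and *BAR1*, a protease that degrades alpha-factor, had 121, 67, 90 and 56 and 3, 1, 1 and 0. *STE6*, the exporter of a-factor, was counted in both (79, 67, 217 and 47 against 80, 57, 53 and 91). Of these 3 *MATa* markers among the pairs, 2 were thus at or near 0 in *K. lactis*.

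The sequence context of the *S. cerevisiae* members came from the R64 genome of RefSeq, the assembly the authors aligned to. Windows of 500 bases before each start codon were searched on both strands, and 1 gene is shown for each of 4 groups that the results turn on. Sites are printed 5′ to 3′ on the strand of the gene, with the motif letters in capitals. *GAL7* (minus strand) carries the Gal4 motif CGGNNNNNNNNNNNCCG, *CTT1* (plus strand) the stress response element AGGGG or its reverse complement, *ERG8* (plus strand) the sterol element TCGTATA as its reverse complement, and *STE2* (plus strand) the pheromone response element TGAAACA.
GAL7 chrII:275703-275719: CGGacaactgttgaCCG
CTT1 site 1, chrVII:654250-654266: ttttcaAGGGGatcacc
CTT1 site 2, chrVII:654265-654281: ccggtaAGGGGccaagc
CTT1 site 3, chrVII:654495-654511: tcgtatCCCCTactgct
ERG8 chrXIII:712158-712176: tttttcTATACGAgatcta
STE2 site 1, chrVI:82251-82269: ttgcaaTGAAACAatagta
STE2 site 2, chrVI:82377-82395: acatgaTGAAACAcatatg

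The letters CGGNNNNNNNNNNNCCG occurred in 2.99% of the 6019 windows of protein-coding genes and in all 4 tested pairs of galactose use. AGGGG occurred in 34% of the 6019 windows, in all 5 pairs of trehalose and glycogen metabolism, in 254 of 673 (37.7%) of the pairs called higher in *K. lactis* and in 179 of 560 (32%) of those called higher in *S. cerevisiae*. TCGTATA was in 6.98% of the 6019 windows and in 9 of 24 (37.5%) sterol pairs, and TGAAACA in 12% of the 6019 windows and in 19 of 31 (61.3%) mating pairs. The same search was run for motifs of the biosynthesis lists. TGACTC, the Gcn4 motif, was in 48 of 82 (58.5%) pairs of amino acid synthesis against 12.6% of the 6019 windows, and GATGAG, the core of the PAC motif, in 119 of 134 (88.8%) ribosome assembly pairs against 28.2% of the 6019. These are matches in *S. cerevisiae* only, and the *K. lactis* genome was not used here.

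Ranks of the pairs were kept within a species and only in part between them. Over the 3781 pairs that passed the filter (at least 2 counts in 3 of the 4 libraries of a species), Spearman's rho of log2 CPM was 0.916 to 0.969 between *S. cerevisiae* libraries and 0.905 to 0.968 between *K. lactis* libraries. Across the species it was 0.375 to 0.519 over the 16 library pairs, with no overlap with the values within a species, as the plot of rank agreement shows. The highest value joined *S. cerevisiae* culture 1 with *K. lactis* culture 1 and the lowest *S. cerevisiae* culture 3 with *K. lactis* culture 3. The means of the 4 libraries gave rho = 0.459 and Pearson's r = 0.461. Genes are no replicates of one another, so these correlations across pairs are given without a p.

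**Figure D1:**
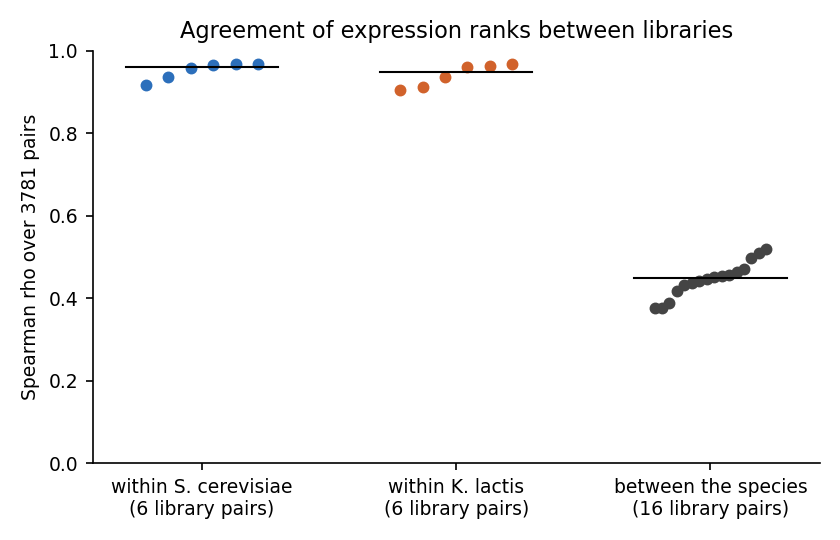
Spearman's rho of log2 CPM over 3781 ortholog pairs (vertical axis) for every pair of PKA-AS libraries with DMSO, within each species and between them; each point is 1 pair of libraries and the line is the median. Values within a species lie above 0.905 or at it, and those between the species lie at or below 0.519.

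On a percentile scale within each library, a pair moved by a median of 17.8 points between the species, against a median SD of 4.44 points between *S. cerevisiae* libraries and 4.88 between *K. lactis* libraries. 32.8% of the pairs lay within 10 points of each other and 9.79% moved by more than 50. Of the 356 pairs whose mean percentile reached the top 10% in *S. cerevisiae* and the 333 that did so in *K. lactis*, 126 were shared (35.4% and 37.8% of each list). The bottom 10%, of 355 pairs in each species, shared 93. Only 6 pairs went from the top 10% in *S. cerevisiae* to the bottom 10% in *K. lactis*, and 9 went the other way.

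These rank changes, named after their values were seen, joined genes of different kinds. From top to bottom went *LYS12*, *MRT4*, *PDA1*, *PIS1*, *SYP1* and *TIM10*, of lysine synthesis, ribosome assembly, pyruvate dehydrogenase, phosphatidylinositol synthesis, endocytosis and mitochondrial import. *PIS1* had 499, 643, 579.7 and 573 CPM in *S. cerevisiae* and 1.04, 0, 0 and 2.25 CPM in *K. lactis*, and *TIM10* 1338, 2312, 1522 and 1292 CPM in *S. cerevisiae* and 4.68, 2.92, 8.67 and 6.2 CPM in *K. lactis*. From bottom to top went *DTR1*, *FRQ1*, *GAL7*, *MIG1*, *MRP2*, *MRPS12*, *MXR2*, *SUC2* and *TRX3*. *SUC2* encodes invertase, which splits sucrose, and had 6.18, 5.73, 5.53 and 2.47 CPM in *S. cerevisiae* and 711, 722, 1204 and 502 CPM in *K. lactis* (log2 difference 7.22 ± 0.40 SE, edgeR adjusted p = 2.61e-09). *MIG1*, the repressor that holds *SUC2* and the galactose genes down on glucose in *S. cerevisiae*, had 0.772, 1.91, 4.02 and 1.23 CPM in *S. cerevisiae* and 691, 638, 812 and 457 CPM in *K. lactis* (log2 difference 8.11 ± 0.42 SE, edgeR adjusted p = 1.63e-09). *MRP2* and *MRPS12*, both of the small mitochondrial ribosomal subunit, differed by 6.45 and 8.70. For all 15 pairs each library of one species lay above each of the other. Their choice by extreme ranks all but required this, and it held for 66.2% of all pairs. For these pairs a low level in 1 species cannot be told apart from reads outside the counted region.

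The translation machinery held much of the top of the ranks in both species, though with different members. Among the 10 highest pairs in *S. cerevisiae* were *RPL28*, *RPS31*, *PDC1*, *RPS12*, *GPM1*, *RPL5*, *HHT2*, *RPP1B* and *RPS2*, and the 10 highest in *K. lactis* were *RPP1A*, *RPS20*, *TYE7*, *HSP12*, *RPL3*, *RPP1B*, *NTF2*, *RPP0*, *RPL30* and *SNA2*. *RPP1B*, an acidic stalk protein of the large ribosomal subunit, was the 1 pair on both lists, with 17362, 5419.9, 3672 and 8066 CPM in *S. cerevisiae* and 8029.9, 7574, 8077 and 6699.8 CPM in *K. lactis* (log2 difference -0.18 ± 0.47 SE, edgeR adjusted p = 0.737). Its libraries overlapped between the species.

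In *S. cerevisiae*, *RPL28*, a protein of the large subunit, was highest with 30479, 32864, 33592 and 34834 CPM in *S. cerevisiae* and 4670.1, 2309.8, 811 and 2927 CPM in *K. lactis*. The groups lay far apart (log2 difference -3.62 ± 0.56 SE, edgeR adjusted p = 3.11e-05). *RPS31*, made as a fusion of ubiquitin with a small-subunit protein, had 31848, 32761, 25474 and 35948 CPM in *S. cerevisiae* and 3800.1, 3006, 1796 and 2819.6 CPM in *K. lactis* (log2 difference -3.46 ± 0.47 SE, edgeR adjusted p = 8.00e-06). *RPS12* differed by -3.34 and *RPL5* by -2.13, both called, and the call of *RPL5* was lost without *K. lactis* culture 3 (-1.81) or without *S. cerevisiae* culture 3 (-1.98). *RPS2* (-0.93) was not called.

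Pyruvate decarboxylase, *PDC1*, opens the branch from pyruvate to ethanol. It had 30995, 36945, 22716 and 31028 CPM in *S. cerevisiae* and 3412, 4758, 5147 and 705 CPM in *K. lactis*, with every *S. cerevisiae* library above every *K. lactis* library (log2 difference -3.12 ± 0.59 SE, edgeR adjusted p = 2.01e-04). *GPM1*, phosphoglycerate mutase, had 20096, 37054, 18630.0 and 27627 CPM in *S. cerevisiae* and 2241, 2654, 1339 and 1079 CPM in *K. lactis* (log2 difference -3.82 ± 0.51 SE, edgeR adjusted p = 6.42e-06). *PDC1* shares much of its coding sequence with *PDC5*, and *HHT2*, a histone H3 gene (mean 9217 ± 2747 CPM in *S. cerevisiae* and 1489.6 ± 254 in *K. lactis*, SD, n = 4), with *HHT1*. Only unique reads were counted, so reads that align to both copies in *S. cerevisiae* may be missing from these levels.

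In *K. lactis*, *RPP1A*, another stalk protein, was highest, with 19883, 2847, 1484 and 5148 CPM in *S. cerevisiae* and 41289, 13745, 7106 and 18736 CPM in *K. lactis* (log2 difference 1.46 ± 0.73 SE, edgeR adjusted p = 0.085). Its libraries overlapped, and without *S. cerevisiae* culture 1 the difference was 2.69 and was called. *RPL3* (0.47), *RPL30* (1.08) and *RPP0* (0.87), which hold the core and the stalk base of the large subunit, were not called. *TYE7*, a basic helix-loop-helix activator of glycolytic genes, ranked 3 in *K. lactis* and 1903 in *S. cerevisiae*, with 103, 63, 81.4 and 104 CPM in *S. cerevisiae* and 12471, 12584, 24593 and 1967 CPM in *K. lactis* (log2 difference 7.20 ± 0.72 SE, edgeR adjusted p = 4.13e-07). Culture 2017 had the lowest *TYE7* level of the *K. lactis* libraries and was still above all *S. cerevisiae* libraries.

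Among the 100 pairs with the highest mean CPM, the 5 that changed rank least were *DBP2* (0.034), *EBP2* (-0.13), *FBA1* (-0.21), *SSH1* (-0.021) and *TMA19* (-0.72), with the log2 difference in parentheses, and none was called. Fructose-bisphosphate aldolase, *FBA1*, had 6768, 6196, 4839 and 6466 CPM in *S. cerevisiae* and 7433, 7035, 2763 and 3719 CPM in *K. lactis*, and these values overlapped. *DBP2*, an RNA helicase, had means of 2613 ± 1777 and 2674 ± 2339 CPM (SD, n = 4), and *SSH1*, a translocon subunit of the endoplasmic reticulum, 2263 ± 163 and 2231 ± 614. Within the translation and sugar machinery, then, levels as close as those of *FBA1* and as far apart as those of *GPM1* were both found.

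Over all pairs, 673 were called higher in *K. lactis* (17.8% of the 3781 tested) and 560 higher in *S. cerevisiae* (14.8%). A total of 2359 pairs had an adjusted p under 0.01 with any size of difference, and the quartiles of the differences lay at -1.24 and 1.40 around a median of 0.033. In 66.2% of the pairs the 4 libraries of one species did not overlap with the 4 of the other, among them 1225 of the 1233 called.

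**Figure D2:**
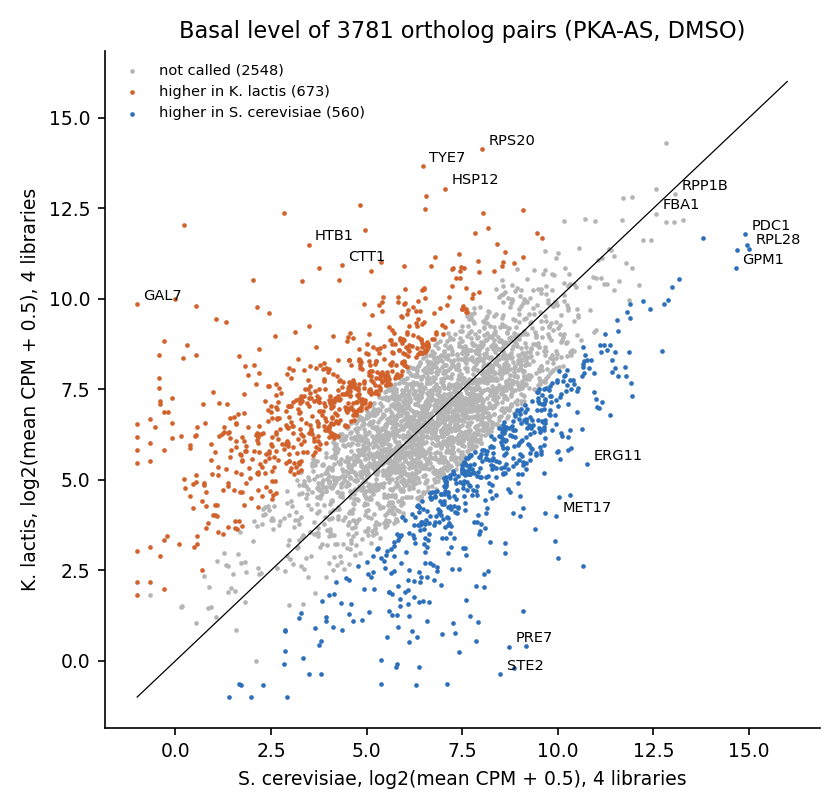
Mean level of each of 3781 ortholog pairs in *S. cerevisiae* (horizontal axis) and *K. lactis* (vertical axis), as log2 of mean CPM + 0.5 over 4 PKA-AS libraries with DMSO; each point is 1 pair, the line marks equal levels and colour gives the call. The 673 pairs called higher in *K. lactis* lie above the line and the 560 called higher in *S. cerevisiae* below it.

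The 10 largest differences toward *K. lactis*, among called pairs with a mean of at least 10 counts in both species and no overlap of libraries, were *HTB1* (8.07), *SNA2* (7.78), *YPL113C* (7.23), *GUT2* (7.20), *TYE7* (7.20), *RPL25* (6.97), *CTT1* (6.61), *NTF2* (6.26), *FMP16* (6.25) and *RPS20* (6.11). They mix genes of stress, glycerol use and nuclear transport with core genes of chromatin and the ribosome. *GUT2*, the mitochondrial glycerol-3-phosphate dehydrogenase, had 10.8, 4.77, 11.6 and 24.7 CPM in *S. cerevisiae* and 1019, 1362, 3392 and 1661 CPM in *K. lactis* (log2 difference 7.20 ± 0.55 SE, edgeR adjusted p = 3.48e-08). *CTT1*, the cytosolic catalase, had 15.4, 20.05, 19.6 and 24.7 CPM in *S. cerevisiae* and 2194, 3283, 1635 and 672 CPM in *K. lactis* (log2 difference 6.61 ± 0.50 SE, edgeR adjusted p = 3.13e-08). *SNA2*, a small membrane protein of the vacuole, had 42.5, 14.3, 21.1 and 34.6 CPM in *S. cerevisiae* and 4397, 5946, 11605 and 2721 CPM in *K. lactis*, and *FMP16*, a mitochondrial protein, 6.18, 17.2, 33.2 and 18.5 CPM in *S. cerevisiae* and 875, 1913, 1926 and 1174 CPM in *K. lactis*. For each of these, as the rule required, the lowest *K. lactis* library lay above the highest *S. cerevisiae* library.

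*HSP12*, a small membrane-bound heat shock protein and a standard reporter of low PKA activity, was among the 10 highest pairs in *K. lactis*. It had 132, 184, 122 and 88.9 CPM in *S. cerevisiae* and 10814, 13369, 2859.7 and 6745 CPM in *K. lactis* (log2 difference 6.00 ± 0.56 SE, edgeR adjusted p = 1.93e-07). The lowest *K. lactis* value was that of culture 3. *YPL113C*, a putative dehydrogenase, had 5.41, 11.5, 11.1 and 9.88 CPM in *S. cerevisiae* and 1339, 1179.7, 2089 and 1141 CPM in *K. lactis* (log2 difference 7.23 ± 0.40 SE, edgeR adjusted p = 2.29e-09).

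Other pairs of this group belong to machinery that growing cells make in bulk and had few counts in *S. cerevisiae*. *RPS20*, a protein of the small ribosomal subunit, had 120.5, 97.4, 368 and 449 CPM in *S. cerevisiae* and 12013, 20071, 21821 and 17612 CPM in *K. lactis* (log2 difference 6.11 ± 0.63 SE, edgeR adjusted p = 5.09e-07). *RPL25*, of the large subunit, had 74.9, 11.5, 9.54 and 25.9 CPM in *S. cerevisiae* and 3642, 4285, 3995 and 3420.4 CPM in *K. lactis*, and *HTB1*, a histone H2B gene whose sequence nearly repeats that of *HTB2*, 17, 3.82, 9.54 and 12.3 CPM in *S. cerevisiae* and 1999.7, 2812, 4753 and 2006 CPM in *K. lactis*. *NTF2*, which carries Ran into the nucleus, had 97.3, 29.6, 161 and 88.9 CPM in *S. cerevisiae* and 3722, 6385, 13886 and 5119.6 CPM in *K. lactis*. *PGK1*, phosphoglycerate kinase, outside the rule and named after its values were seen, had 133, 73.5, 78.4 and 80.3 CPM in *S. cerevisiae* and 12429.5, 4866, 2806 and 2838 CPM in *K. lactis*. For such genes a low level in *S. cerevisiae* cannot be told apart from reads that fell outside the counted region.

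The 10 largest differences toward *S. cerevisiae* were *MRT4* (-6.61), *MET17* (-6.01), *ERG8* (-5.71), *SAM3* (-5.70), *SYP1* (-5.70), *MCH5* (-5.57), *CDC42* (-5.49), *EFM1* (-5.44), *ERG11* (-5.33) and *SKI2* (-4.98). They include genes of sterol synthesis, sulfur metabolism and membrane transport. *MET17*, which joins sulfide to O-acetylhomoserine, had 738, 901, 994 and 1331 CPM in *S. cerevisiae* and 12.5, 17.5, 17.3 and 14.7 CPM in *K. lactis* (log2 difference -6.01 ± 0.33 SE, edgeR adjusted p = 2.26e-09), and *SAM3*, the S-adenosylmethionine permease, 409, 484, 317 and 373 CPM in *S. cerevisiae* and 11.4, 6.8, 7.43 and 3.95 CPM in *K. lactis*. The *K. lactis* strain carries a *metA1* allele, and its part in the levels of *MET17* and *SAM3* was not tested. *MCH5*, a riboflavin transporter, had 955, 861, 677 and 753 CPM in *S. cerevisiae* and 18.7, 11.7, 11.1 and 24.2 CPM in *K. lactis*. *ERG11*, the lanosterol demethylase that azole drugs inhibit, had 1657, 2332, 1581 and 1427 CPM in *S. cerevisiae* and 46.3, 54.4, 24.8 and 46.8 CPM in *K. lactis* (log2 difference -5.33 ± 0.36 SE, edgeR adjusted p = 1.02e-08), and *ERG8*, phosphomevalonate kinase, 894, 1409, 1636 and 1143 CPM in *S. cerevisiae* and 36.4, 22.3, 6.19 and 28.2 CPM in *K. lactis*.

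Genes of ribosome assembly, cell polarity and RNA decay were among them as well. *MRT4*, which acts in assembly of the large ribosomal subunit, had 970.0, 1094, 844 and 959 CPM in *S. cerevisiae* and 16.1, 4.86, 8.67 and 7.89 CPM in *K. lactis* (log2 difference -6.61 ± 0.37 SE, edgeR adjusted p = 2.61e-09). *CDC42*, the GTPase that sets cell polarity, had 1077, 1204, 833 and 1085 CPM in *S. cerevisiae* and 24.5, 18.5, 13.6 and 33.8 CPM in *K. lactis*. *EFM1*, a lysine methyltransferase, had means of 395 ± 108 and 9.07 ± 1.87 CPM, *SYP1*, an early endocytic protein, 677 ± 154 and 11.9 ± 8.78, and *SKI2*, a helicase of mRNA decay, 298 ± 44.8 and 9.31 ± 1.28 (SD, n = 4). For these 10 pairs every *K. lactis* library lay below every *S. cerevisiae* library, which the rule for naming them had required. The plot of 18 pairs by library shows this for *MRT4*, *MET17*, *CDC42* and *ERG11*. A low level of these pairs in *K. lactis* cannot be told apart from reads outside the counted region.

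**Figure D3:**
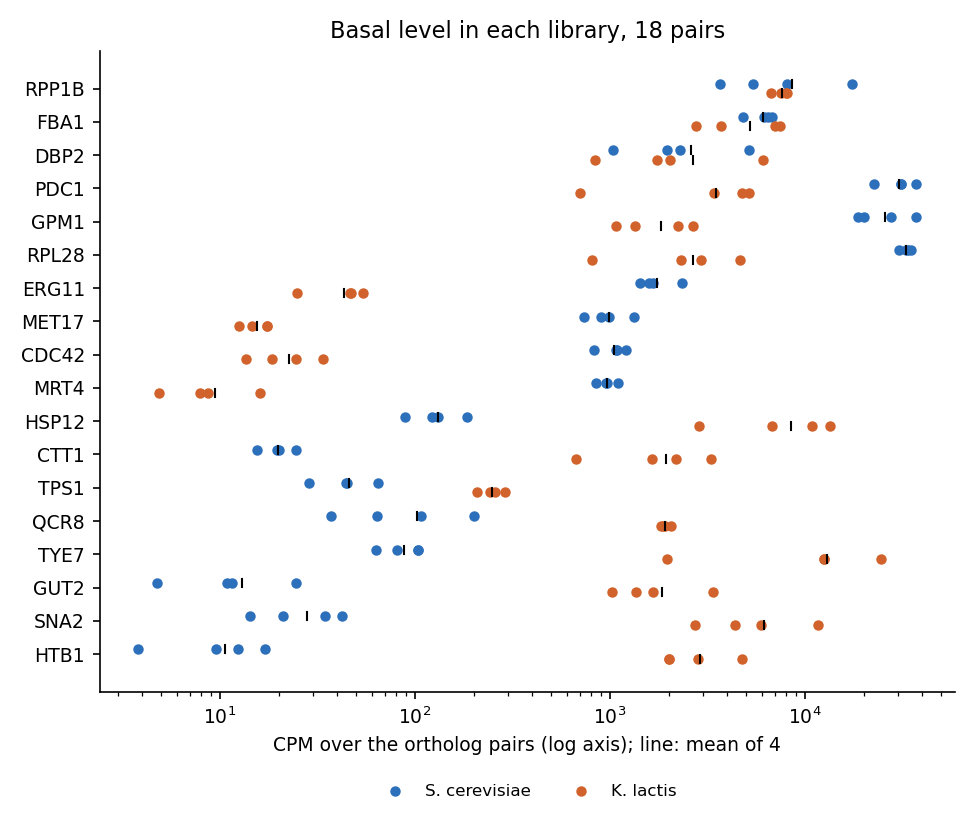
CPM over the ortholog pairs in each PKA-AS library with DMSO (horizontal log axis) for 18 named pairs; each point is 1 of 4 libraries per species and the line is their mean. *RPP1B*, *FBA1* and *DBP2* overlap, the 7 pairs from *PDC1* to *MRT4* are higher in every *S. cerevisiae* library, and the 8 from *HSP12* to *HTB1* are higher in every *K. lactis* library.

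Counts of 3 or fewer in every library of a species were found for 65 pairs called higher in *K. lactis* and 35 called higher in *S. cerevisiae*. For these only a lower bound can be given, set against 3 counts per library (2.6 CPM in *S. cerevisiae* and 2.47 in *K. lactis* on average). *GAL7*, the galactose-1-phosphate uridyltransferase shown above with its Gal4 site, had no count in *S. cerevisiae* and 1131, 1156, 992 and 402 CPM in *K. lactis*, at least 354-fold higher. *DTR1*, a transporter of the spore wall precursor dityrosine in *S. cerevisiae*, was at least 1628-fold higher (4562, 1337, 7790.1 and 3229.9 CPM in *K. lactis*). *TRX3*, mitochondrial thioredoxin, was at least 389-fold higher, *FRQ1*, an activator of phosphatidylinositol 4-kinase, at least 339.9-fold, and *XYL2*, a xylitol dehydrogenase, at least 175-fold.

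In the other direction, *STE4*, the beta subunit of the G protein in the pheromone pathway, was at least 186-fold lower in *K. lactis*, with 645, 611, 647 and 346 counts in *S. cerevisiae* against 1, 1, 0 and 0 in *K. lactis*. *STE2* was at least 146-fold lower. *PRE7*, a subunit of the proteasome core, was at least 171-fold lower, with 397, 409, 467 and 416 CPM in *S. cerevisiae* and 1.56, 0, 0 and 1.69 CPM in *K. lactis*. *SRV2*, which binds adenylate cyclase and actin, was at least 93.6-fold lower and *CAF40*, of the CCR4-NOT complex, at least 69.4-fold. *FRQ1* in *S. cerevisiae* and *PRE7* in *K. lactis* are genes that cells of *S. cerevisiae* need to grow, so a level at the floor cannot be told apart from reads outside the counted region.

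Since counts come from 3′ ends, the difference was also set against the layout of the *S. cerevisiae* genes. Its Spearman rho with *S. cerevisiae* gene length was 0.0179 across 3781 pairs. Where the next gene downstream was convergent and at most 100 bases away, the median difference was -0.20 over 299 pairs, with 12.7% called higher in *K. lactis*. Where it was convergent and over 300 bases away, it was 0.23 over 556 pairs (19.1%). For tandem neighbours over 300 bases away it was -0.023 over 1126 pairs. In between, over 100 and up to 300 bases away, it was 0.15 over 1240 convergent and -0.16 over 550 tandem pairs. The 10 tandem pairs at most 100 bases away, a class under 20 pairs, had a median of 2.01 with 5 called higher in *K. lactis*, the opposite side from close convergent pairs. The same was not computed for *K. lactis*, whose annotation was not used here.

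Gene groups were described from 35 lists, of which 33 had at least 5 tested pairs. The share of members called in each direction is to be read against 17.8% and 14.8% over all pairs, and the median against 0.033. Figures in parentheses after a gene in the following paragraphs are log2 differences, and a gene without a call is said to be so or is counted as such.

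**Figure D4:**
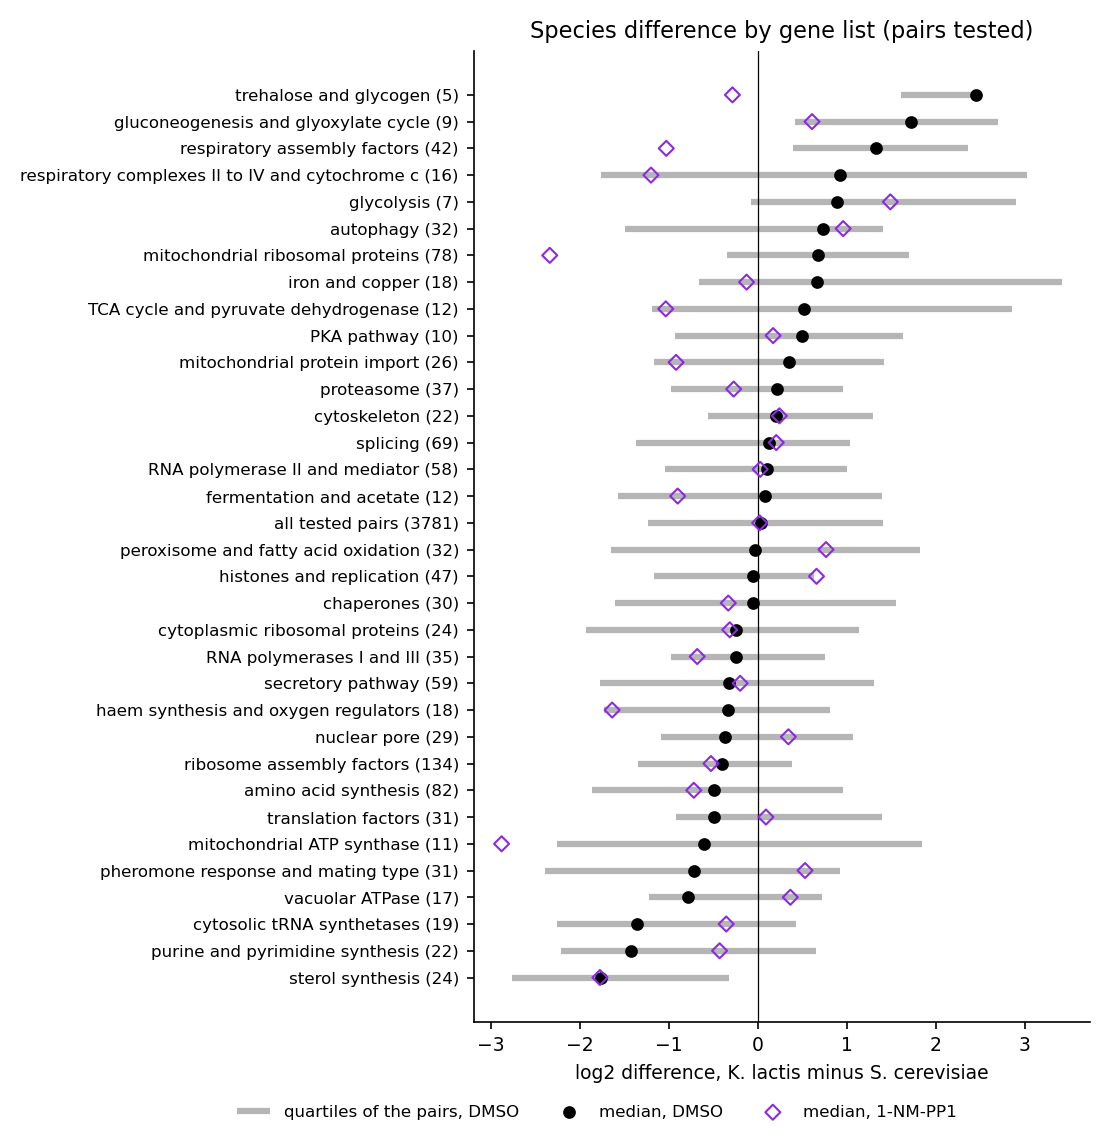
Species difference (horizontal axis, log2, *K. lactis* minus *S. cerevisiae*) for 33 gene lists and for all tested pairs, with the number of pairs in parentheses. Filled circles are medians with DMSO, grey bars join the quartiles with DMSO, and open diamonds are medians with 1-NM-PP1 (4 libraries per species and treatment). With DMSO the medians run from -1.76 for sterol synthesis to 2.45 for trehalose and glycogen.

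Lists of mitochondrial translation and of respiratory assembly had medians above that of all pairs. Of the mitochondrial ribosomal proteins, 16 of 78 were called higher in *K. lactis* and 3 in *S. cerevisiae* (median 0.67, 52 of 78 above 0), so the share called for *K. lactis* was near the background and that for *S. cerevisiae* below it. The median percentile of the list was 56 to 60.7 in the *S. cerevisiae* libraries and 70.8 to 73.6 in the *K. lactis* libraries. The 3 highest members were *MRPS16* (-2.28, called higher in *S. cerevisiae*), *MRPL3* (1.18, not called) and *IMG1* (-1.84, not called). Of the respiratory assembly factors, 13 of 42 were called higher in *K. lactis* and 3 in *S. cerevisiae* (median 1.32, 35 of 42 above 0). *ATP25*, needed for the ATP synthase ring, had 72.6, 71.6, 62.3 and 42 CPM in *S. cerevisiae* and 345, 409, 729 and 379.9 CPM in *K. lactis* (log2 difference 2.89 ± 0.30 SE, edgeR adjusted p = 6.10e-07). *PET100*, a chaperone of cytochrome c oxidase, differed by 2.05, a call lost without *K. lactis* culture 3 (1.89) and without *S. cerevisiae* culture 1 (1.996), and *COX17*, a copper chaperone, by -1.99, just short of a call toward *S. cerevisiae* that it gained when 1 of 5 libraries was left out (down to -2.12 without *K. lactis* culture 1).

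Subunits of the respiratory complexes themselves split. For complexes II to IV and cytochrome c, 6 of 16 were called higher in *K. lactis* and 4 in *S. cerevisiae* (median 0.92, quartiles -1.76 and 3.03), and the median was 0.59 without *K. lactis* culture 2017. *QCR8*, of complex III, had 201, 64, 37.2 and 107 CPM in *S. cerevisiae* and 1818, 1916, 2068 and 1879.5 CPM in *K. lactis* (log2 difference 4.23 ± 0.46 SE, edgeR adjusted p = 8.91e-07), while *COX13*, of complex IV, went the other way (-2.06), a call lost without *K. lactis* culture 3 (-1.80) or without *S. cerevisiae* culture 1 (-1.64), and *COX12* (0.30) was not called. Among ATP synthase subunits, 2 of 11 were called higher in *K. lactis* and 3 in *S. cerevisiae* (median -0.61, and -0.29 without *K. lactis* culture 3 and -0.15 without *S. cerevisiae* culture 1), with *ATP7* (2.68) and *TIM11* (2.22) higher in *K. lactis* and *ATP4* (-0.82) not called. In the TCA cycle and pyruvate dehydrogenase, 5 of 12 were called higher in *K. lactis* and 1 in *S. cerevisiae* (median 0.52). *LAT1*, a pyruvate dehydrogenase subunit, was higher in *K. lactis* (2.84), and *ACO1*, aconitase (0.94), and *FUM1*, fumarase (-1.87), were not called. *PDA1*, another subunit of that enzyme, was the only call of the list toward *S. cerevisiae* (-7.31) and is named after its values were seen. With a mean of 10 counts in both species the median of this list was 1.01. For mitochondrial protein import, 3 of 26 were called higher in *K. lactis* and 5 in *S. cerevisiae* (median 0.35), and *TOM6* (0.40), *TOM5* (0.094) and *TIM17* (0.61) were not called.

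Central carbon genes differed gene by gene. Of 7 glycolytic pairs, 3 were called higher in *K. lactis* and 1 in *S. cerevisiae* (median 0.88). Triose phosphate isomerase, *TPI1*, had 1469.6, 171, 213 and 332 CPM in *S. cerevisiae* and 9493, 5899, 4582 and 2565 CPM in *K. lactis* (log2 difference 3.37 ± 0.66 SE, edgeR adjusted p = 3.04e-04). *GPM1* was on the other side and *FBA1* had no call. As for *PGK1* above, a low *TPI1* level in *S. cerevisiae* cannot be told apart from reads outside the counted region. For fermentation and acetate, 3 of 12 were called higher in *K. lactis* and 3 in *S. cerevisiae* (median 0.083, -0.037 without *K. lactis* culture 3 and 0.25 without *S. cerevisiae* culture 3, and -0.24 with a mean of 10 counts in both species). *ALD5*, a mitochondrial acetaldehyde dehydrogenase, was higher in *S. cerevisiae* with 1767, 4232, 2387 and 2192 CPM in *S. cerevisiae* and 195, 133, 73.1 and 43.4 CPM in *K. lactis* (log2 difference -4.57 ± 0.49 SE, edgeR adjusted p = 8.34e-07), and *SFA1*, a formaldehyde and alcohol dehydrogenase, was higher in *K. lactis* (4.38). Of 9 pairs of gluconeogenesis and the glyoxylate cycle, 3 were called higher in *K. lactis* and 1 in *S. cerevisiae* (median 1.72, and 0.48 with a mean of 10 counts in both species), while *MDH3* (-1.06) and *MDH2* (0.41), among its 3 highest members, were not called. Named after their values were seen, *FBP1*, fructose-1,6-bisphosphatase, was at least 133-fold higher in *K. lactis*, since *S. cerevisiae* was at the floor, and *PCK1*, phosphoenolpyruvate carboxykinase, differed by 2.70, while *ICL1*, isocitrate lyase, differed by -4.39. All 3 are repressed by glucose in *S. cerevisiae*.

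The galactose genes *GAL7* and *GAL10* had few or no counts in *S. cerevisiae* and were well counted in *K. lactis* in the same glucose medium. Of 4 tested pairs, too few for the list rule, 3 were called higher in *K. lactis* and none in *S. cerevisiae*, where edgeR at an unadjusted p under 0.05 and DESeq2 gave none either. These were *GAL7*, *GAL10* (6.20) and *GAL4* (5.66), of which the last pair are named after their values were seen. *GAL10*, the epimerase, had 1.54, 3.82, 5.53 and 3.7 CPM in *S. cerevisiae* and 436, 349, 240.3 and 116 CPM in *K. lactis*. *GAL80*, the repressor of Gal4, was not called (0.97). Of 3 pentose phosphate pairs, 1 was called higher in *S. cerevisiae* (median -0.12). Among peroxisome and fatty acid oxidation pairs, 8 of 32 were called higher in *K. lactis* and 7 in *S. cerevisiae* (median -0.034, and -0.17 without *K. lactis* culture 3 and 0.17 without *K. lactis* culture 1), with the peroxins *PEX4* (2.15, called, and 1.86 without *K. lactis* culture 3), *PEX7* (1.09) and *PEX2* (-0.59).

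Of 5 trehalose and glycogen pairs, which make and use storage carbohydrates, 3 were called higher in *K. lactis* and none in *S. cerevisiae* (median 2.45, with none at an unadjusted p under 0.05 in edgeR or by DESeq2), and the median percentile was 13.3 to 22.1 in the *S. cerevisiae* libraries and 47 to 67.9 in the *K. lactis* libraries. *TPS1*, trehalose-6-phosphate synthase, had 64.9, 44.9, 28.6 and 44.5 CPM in *S. cerevisiae* and 258, 289.6, 242 and 209 CPM in *K. lactis* (log2 difference 2.45 ± 0.28 SE, edgeR adjusted p = 1.35e-06), and *GPH1*, glycogen phosphorylase, 14.7, 24.8, 22.1 and 24.7 CPM in *S. cerevisiae* and 83.8, 89.4, 179.6 and 133 CPM in *K. lactis* (log2 difference 2.49 ± 0.31 SE, edgeR adjusted p = 3.94e-06). *TPS2*, trehalose-6-phosphate phosphatase (1.61), was not called. Of the chaperones, 6 of 30 were called higher in *K. lactis* and 6 in *S. cerevisiae* (median -0.06, and -0.23 without *K. lactis* culture 2017 and 0.015 without *K. lactis* culture 3), with *HSP60* (-2.16) called for *S. cerevisiae*, a call lost without *K. lactis* culture 3 (-1.91) or culture 2 (-1.997), and *ZUO1* (-1.21) and *HSP10* (-0.54) not called. For autophagy, 6 of 32 were called higher in *K. lactis* and 3 in *S. cerevisiae* (median 0.73, and 0.41 with a mean of 10 counts in both species), and *ATG18* (-0.99), *ATG21* (1.39) and *ATG27* (1.34) were not called.

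Of the sterol synthesis pairs, 10 of 24 were called higher in *S. cerevisiae* and none in *K. lactis* by edgeR or DESeq2, where 3 had an unadjusted p under 0.05 in edgeR (median -1.76, with 5 of 24 above 0), and the median percentile was 83.7 to 88.2 in the *S. cerevisiae* libraries and 61.7 to 67.6 in the *K. lactis* libraries. *ERG10*, acetoacetyl-CoA thiolase, had 2274, 2822, 1819 and 3044 CPM in *S. cerevisiae* and 339, 426, 328 and 432 CPM in *K. lactis* (log2 difference -2.71 ± 0.31 SE, edgeR adjusted p = 1.60e-06), while *ERG20*, farnesyl pyrophosphate synthase (-1.65), and *ERG6*, a sterol methyltransferase (-0.97), fell short of a call. The 10 called pairs ran from the first step, *ERG10*, through *ERG8*, *MVD1* (-2.17) and *ERG1* (-2.20), then *ERG11* and *ERG24* (-3.22), to *ERG3* (-4.10), *ERG5* (-4.46) and *ERG4* (-2.28) at the end of the pathway. The last was *ERG29* (-2.96), and those not in the rule are named after their values were seen. For haem synthesis and oxygen regulators, 2 of 18 were called higher in *K. lactis* and 4 in *S. cerevisiae* (median -0.34). *HEM13*, the oxygen-using coproporphyrinogen oxidase, was higher in *K. lactis* with 71, 47.7, 41.2 and 63 CPM in *S. cerevisiae* and 1374, 1204, 1475 and 202 CPM in *K. lactis* (log2 difference 4.26 ± 0.51 SE, edgeR adjusted p = 2.28e-06), whereas *YHB1*, a haem-containing nitric oxide dioxygenase, was higher in *S. cerevisiae* (-2.20, and -1.82 without *K. lactis* culture 2017), and *HEM12* (0.33) was not called.

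Of the purine and pyrimidine pairs, 4 of 22 were called higher in *K. lactis* and 7 in *S. cerevisiae* (median -1.43). Its 3 highest members were all called higher in *S. cerevisiae*: *ADE6* (-2.17) and *ADE3* (-2.47), of de novo synthesis, and *ADO1*, adenosine kinase, with 2976, 3514, 2115 and 2842 CPM in *S. cerevisiae* and 590.1, 313, 225 and 336 CPM in *K. lactis* (log2 difference -2.96 ± 0.37 SE, edgeR adjusted p = 3.27e-06). For amino acid synthesis, 15 of 82 were called higher in *K. lactis* and 20 in *S. cerevisiae* (median -0.49, and -0.31 without *S. cerevisiae* culture 1), with *PRO3* (-2.42) called for *S. cerevisiae* and *PRO2* (-0.32) and *HOM6* (1.06) not called. *LEU2*, a marker allele in both strains and so no measure of a species, had 1316, 2519, 1323 and 1229 CPM in *S. cerevisiae* and 76.5, 96.2, 76.8 and 84 CPM in *K. lactis*. Of the cytosolic tRNA synthetases, 5 of 19 were called higher in *S. cerevisiae* and none in *K. lactis* by edgeR or DESeq2, where 5 had an unadjusted p under 0.05 in edgeR (median -1.36), although the 3 highest, *THS1* (0.10), *GUS1* (-0.78) and *FRS2* (1.21), were not called. The called ones, named after their values were seen, were *KRS1* (-3.51), *YHR020W* (-3.16), *TYS1* (-2.98), *ILS1* (-2.85) and *HTS1* (-2.57).

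The large list of ribosome assembly factors had shares near or below the background: 6 of 134 were called higher in *K. lactis* and 19 in *S. cerevisiae* (median -0.41, 52 of 134 above 0). *GAR1*, a core protein of box H/ACA particles, had 4234, 7239.6, 9972 and 5706 CPM in *S. cerevisiae* and 654, 245, 194 and 406 CPM in *K. lactis* (log2 difference -4.17 ± 0.49 SE, edgeR adjusted p = 1.77e-06), and *NSR1* (-1.89) and *DBP2* were not called, though *NSR1* was called without *K. lactis* culture 1 (-2.57) or *S. cerevisiae* culture 3 (-2.24). Among 24 cytoplasmic ribosomal proteins, 4 were called higher in *K. lactis* and 6 in *S. cerevisiae* (median -0.24). That median was 0.56 without *S. cerevisiae* culture 1, -0.40 without *S. cerevisiae* culture 2 and -0.47 without *S. cerevisiae* culture 3. For RNA polymerases I and III, 2 of 35 were called higher in *K. lactis* and 5 in *S. cerevisiae* (median -0.25), with *RPA34* called for *S. cerevisiae* (-3.41) and *RPA190* (-1.09) and *RPA135* (1.20) not called. Of the translation factors, 5 of 31 were called higher in *K. lactis* and 4 in *S. cerevisiae* (median -0.49, and 0.06 without *S. cerevisiae* culture 1), with *SUI3*, the beta subunit of eIF2, called for *S. cerevisiae* (-2.92) and *FUN12* (-0.62) and *TEF4* (-0.79) not called.

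Lists of general cell machinery had medians near that of all pairs. For RNA polymerase II and mediator, 6 of 58 were called higher in *K. lactis* and 7 in *S. cerevisiae* (median 0.096, and 0.15 without *S. cerevisiae* culture 2 and 0.016 without *S. cerevisiae* culture 2017), and *RPO21*, *TFG1* and *TAF7* were not called. For the proteasome, 2 of 37 were called higher in *K. lactis* and 6 in *S. cerevisiae* (median 0.21, *PRE3*, *RPN2* and *PRE2* not called). In the cytoskeleton list, 1 of 22 was called higher in *S. cerevisiae* and none in *K. lactis* by edgeR or DESeq2, where 7 had an unadjusted p under 0.05 in edgeR (median 0.21, and 0.13 without *K. lactis* culture 1, 0.34 without *K. lactis* culture 3 and 0.32 without *S. cerevisiae* culture 3), the call being profilin, *PFY1* (-2.48), while actin, *ACT1*, differed by -1.10 and *ARC15* by 1.89 without a call. Among splicing factors, 10 of 69 were called higher in *K. lactis* and 12 in *S. cerevisiae* (median 0.12, and 0.19 without *K. lactis* culture 2 and 0.061 without *K. lactis* culture 3), with *PRP8* called for *S. cerevisiae* (-2.87), *SNU13* for *K. lactis* (2.06, and 1.78 without *K. lactis* culture 1) and *PRP43* not called. Of histone and replication pairs, 4 of 47 were called higher in *K. lactis* and 6 in *S. cerevisiae* (median -0.056, and -0.17 without *K. lactis* culture 1 and 0.02 without *K. lactis* culture 2), and *HHF1* (-0.89) and *HHF2* (-1.15), a pair of histone H4 genes that encode the same protein, were not called.

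Of the nuclear pore pairs, 4 of 29 were called higher in *K. lactis* and 3 in *S. cerevisiae* (median -0.37, and -0.25 without *K. lactis* culture 3 and -0.23 without *S. cerevisiae* culture 1), with *NUP1* called for *S. cerevisiae* (-3.61) and *NUP159* (-1.33) and *KAP123* (0.16) not called. For the secretory pathway, 8 of 59 were called higher in *K. lactis* and 12 in *S. cerevisiae* (median -0.33). *SEC53*, phosphomannomutase, was higher in *S. cerevisiae* (-2.28), and *SAR1* (0.43) and *EMP24* (1.41) were not called. Of vacuolar ATPase subunits, 1 of 17 was called higher in *K. lactis* and 2 in *S. cerevisiae* (median -0.79, and -0.21 without *S. cerevisiae* culture 1), with *VMA4* (-1.85), *VMA10* (1.36) and *VMA2* (-0.82) not called. Among iron and copper genes, 6 of 18 were called higher in *K. lactis* and 1 in *S. cerevisiae* (median 0.66): *CTR1*, the copper transporter, had 203, 114, 166 and 157 CPM in *S. cerevisiae* and 1889.9, 697, 1869 and 1647 CPM in *K. lactis* (log2 difference 3.25 ± 0.36 SE, edgeR adjusted p = 1.11e-06), and *FET3* (1.03) and *FRE1* (1.20) were not called.

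Mating genes held more calls toward *S. cerevisiae*. Of 31 pairs, 3 were called higher in *K. lactis* and 11 in *S. cerevisiae* (median -0.72), and the median percentile was 40.02 to 40.8 in the *S. cerevisiae* libraries and 14.8 to 24.1 in the *K. lactis* libraries. Among them were *STE2* and *STE4* (above). Named after their values were seen, *GPA1*, the alpha subunit of the same G protein, had 145, 117, 178 and 95 counts in *S. cerevisiae* against 15, 5, 1 and 5 in *K. lactis* (log2 difference -4.53 ± 0.37 SE, edgeR adjusted p = 5.57e-08), and *FUS3*, the kinase of the pheromone cascade, 149, 184, 306 and 92 against 10, 8, 7 and 14 (log2 difference -4.26 ± 0.31 SE, edgeR adjusted p = 1.80e-08). *BAR1* was at least 27.5-fold lower in *K. lactis*, and *FAR1*, which arrests the cell cycle, differed by -2.14. The 3 highest members of the list, *STE14* (-0.87), *STE23* (-0.89) and *STE20* (-0.57), which also serve other processes, were not called.

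In the PKA pathway, 2 of 10 pairs were called higher in *K. lactis* and 1 in *S. cerevisiae* (median 0.49, and 0.87 with a mean of 10 counts in both species). *TPK2*, the only catalytic subunit among the pairs, had 98.1, 116, 95.9 and 143 CPM in *S. cerevisiae* and 107, 146, 34.7 and 179.8 CPM in *K. lactis* (log2 difference 0.061 ± 0.37 SE, edgeR adjusted p = 0.89), and its libraries overlapped. It carries a gatekeeper point mutation in both strains, which a count does not read. *BCY1*, the regulatory subunit, had 178, 269, 200.4 and 206 CPM in *S. cerevisiae* and 542, 620.0, 1294 and 421 CPM in *K. lactis* (log2 difference 1.75 ± 0.34 SE, edgeR adjusted p = 2.45e-04), short of a call, and *GPR1*, the sugar receptor, differed by -1.42 without one. The called pairs were *PDE2*, the high-affinity cAMP phosphodiesterase (2.80), and *RGS2*, a regulator of Gpa2 (2.32), both named after their values were seen, and *SRV2*. *TPK3*, *MSN2*, *MSN4*, *RPH1* and *GIS1* are no one-to-one pairs and were not members.

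The species differences recurred in other strains. In PKA-WT cultures with DMSO (3 *S. cerevisiae* and 2 *K. lactis* libraries), 507 pairs were called higher in *K. lactis* (13.4%) and 325 in *S. cerevisiae* (8.6%). All 1233 pairs called in PKA-AS had the same direction in PKA-WT and 772 of them were called there. Across the 3781 pairs the differences in the 2 backgrounds had r = 0.961, a description over pairs that share genomes and counted regions. The count rests on both *K. lactis* libraries: without culture 1 it was 333 and 158, and without culture 2 207 and 62, with the lone library taken to vary like those of *S. cerevisiae*. Of these, *K. lactis* culture 2 lay nearer to the *K. lactis* libraries with 1-NM-PP1 (rho 0.694) than culture 1 (0.473), and the part of this in the result was not tested. *HSP12* differed by 7.49 there, *CTT1* by 4.95, *MET17* by -6.01 and *ERG11* by -4.24, each called, while *PDC1* (-2.48, edgeR adjusted p = 0.0603) was not. The rank correlation of the species was 0.456 in PKA-WT.

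Most differences were also found in strains without the stress regulators. Each of these had 4 cultures with DMSO per species, except 3 in *K. lactis* with both sets deleted. Counts of the repeat libraries of *S. cerevisiae* ΔRph1/Gis1 culture 2 were summed. In ΔMsn2/4 cultures with DMSO, 652 pairs were called higher in *K. lactis* and 568 in *S. cerevisiae* (17.2 and 15.0%), in ΔRph1/Gis1 668 and 583 (17.7 and 15.4%), and with both sets deleted 721 and 591 (19.1 and 15.6%). Of the 1233 pairs called without a deletion, 1232, 1231 and 1232 kept their direction in these 3 strains, and 1092, 1068 and 1080 were called again. The difference of *HSP12* was 9.07 in ΔMsn2/4, 7.51 in ΔRph1/Gis1 and 8.91 with both sets deleted, and that of *CTT1* was 7.65, 5.60 and 7.26. For the trehalose and glycogen list the medians were 4.02, 2.42 and 3.86. Whether a difference changed with a deletion was not tested.

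With 1-NM-PP1, which inhibits the PKA-AS kinases, reads were counted in the same regions as with DMSO. Reads outside any counted region were 3.81 to 6.07% with DMSO and 5.91 to 8.24% with 1-NM-PP1 in *S. cerevisiae*. In *K. lactis* they were 9.26 to 12.0% and 9.50 to 12.7%. Whether 3′ ends moved with the inhibitor was not tested. With the inhibitor, 761 pairs were called higher in *K. lactis* (20.1%) and 698 in *S. cerevisiae* (18.5%), and the rank correlation of the species was 0.393 against 0.459 with DMSO. In PKA-WT strains, which lack the gatekeeper mutations, it was also lower with 1-NM-PP1 (0.324, 3 libraries per species) than with DMSO (0.456). The cause of the lower values was not tested. Of the 1233 pairs called in PKA-AS with DMSO, 1167 (94.6%) had the same direction in PKA-AS with the inhibitor and 882 were called in it. In a fit of all 16 libraries, the difference itself changed past 2 toward *K. lactis* in 263 pairs (6.96%) and toward *S. cerevisiae* in 322 (8.52%). This split depends on the scaling: it was 235 and 344 with DESeq2 size factors and 181 and 376 with library totals, where the median change of all pairs was -0.10, against 0.18 with TMM and 0.11 with DESeq2 size factors. CPM values below were scaled over the 16 libraries. The comparison with DMSO and this change share the 8 DMSO libraries. The fit did not pair the DMSO and inhibitor portions of a culture. With the culture as a block, 268 pairs changed toward *K. lactis* and 346 toward *S. cerevisiae*. Changes given below come from the unpaired fit. Differences given with the inhibitor come from a fit of the inhibitor libraries alone, so a change need not equal the gap between the printed differences.

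Several stress genes that were higher in *K. lactis* with DMSO changed toward *S. cerevisiae*, where the inhibitor brought them up most. *HSP12* had 123 ± 35.8 CPM with DMSO and 40309 ± 12089 with 1-NM-PP1 in *S. cerevisiae*, while *K. lactis* had 8032 ± 4304 and 13279.8 ± 7476 under the same treatments (SD, n = 4, change -7.63 ± 0.72 SE, edgeR adjusted p = 1.50e-07). Its difference was -1.76 with the inhibitor. *CTT1* had 18.6 ± 3.54 CPM with DMSO and 7531 ± 1054 with 1-NM-PP1 in *S. cerevisiae*, while *K. lactis* had 1851 ± 1016 and 6413 ± 2239 under the same treatments (change -6.87 ± 0.60 SE, edgeR adjusted p = 6.04e-08), a difference of -0.37 with the inhibitor. *FMP16* (-4.35), *YPL113C* (-4.39), *GUT2* (-3.19) and *GPH1* (-3.40) also changed toward *S. cerevisiae*. The median of the trehalose and glycogen list was -0.29 with the inhibitor, and 3 of its 5 pairs changed toward *S. cerevisiae*.

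For mitochondrial ribosomal proteins the median difference was -2.34 with the inhibitor, and 70 of 78 changed past the threshold toward *S. cerevisiae* and 1 toward *K. lactis*. *MRPL3* had 265 ± 57.2 CPM with DMSO and 316 ± 73.5 with 1-NM-PP1 in *S. cerevisiae*, while *K. lactis* had 616 ± 106 and 91.4 ± 23.4 under the same treatments (change -3.01 ± 0.36 SE, edgeR adjusted p = 2.41e-06). The respiratory assembly factors had a median of -1.03, with 24 of 42 changed toward *S. cerevisiae*, and complexes II to IV and cytochrome c one of -1.20, with 8 of 16. *PET100* had 88.2 ± 6.64 CPM with DMSO and 303 ± 43.2 with 1-NM-PP1 in *S. cerevisiae*, while *K. lactis* had 375 ± 82.8 and 191 ± 35.3 under the same treatments (change -2.76 ± 0.30 SE, edgeR adjusted p = 1.02e-06). These 3 lists had no change toward *K. lactis* apart from that 1 pair, and at an unadjusted p under 0.05 in edgeR the assembly factors and complexes had none either.

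Mating genes changed in the other direction. *STE4* had 238, 705, 411 and 479 counts in *K. lactis* with the inhibitor, after 1, 1, 0 and 0 with DMSO, and 501, 302, 368 and 307 in *S. cerevisiae* (edgeR adjusted p of the change = 1.91e-09). Its fitted change, 10.25, depends on the prior count because *K. lactis* was at the floor with DMSO. *GPA1* had 1229, 1690, 288 and 1250 counts in *K. lactis* with the inhibitor (change 7.86 ± 0.60 SE, edgeR adjusted p = 2.74e-08), and *FUS3* 139, 243, 109 and 347 (change 5.65 ± 0.36 SE, edgeR adjusted p = 1.91e-09). *STE2*, in contrast, had 0, 2, 1 and 3 counts in *K. lactis* and was still near 0. Of 31 mating pairs, 10 changed toward *K. lactis* and none toward *S. cerevisiae*, where 1 had an unadjusted p under 0.05 in edgeR. *EFM1* (4.12) also changed toward *K. lactis*. The sterol list had a median of -1.78 and 11 of 24 pairs higher in *S. cerevisiae* with the inhibitor.

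**Figure D5:**
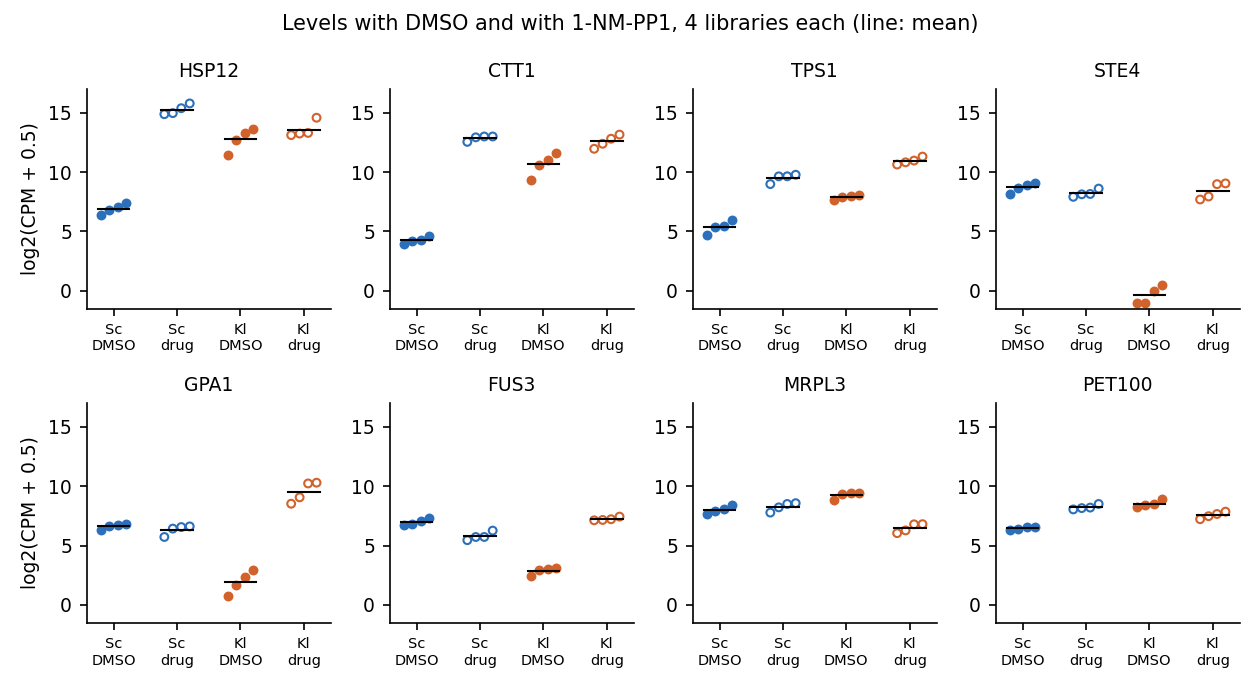
Level of 8 pairs in PKA-AS libraries with DMSO (filled) and with 1-NM-PP1 (open), as log2 of CPM + 0.5 (vertical axis) in *S. cerevisiae* (blue) and *K. lactis* (orange); each point is 1 of 4 libraries and the line is their mean. *HSP12* and *CTT1* are lowest in *S. cerevisiae* with DMSO, *STE4*, *GPA1* and *FUS3* are lowest in *K. lactis* with DMSO, and *MRPL3* is lowest in *K. lactis* with the inhibitor.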

How the data were processed

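Libraries were made with the QuantSeq 3′ FWD kit from PKA-AS and PKA-WT cultures of *S. cerevisiae* and *K. lactis*. The authors trimmed and aligned the reads in the Bluebee pipeline to R64 and ASM241v1 and counted unique reads per gene with htseq, after they had added published 3′ UTRs to the *S. cerevisiae* annotation and a downstream stretch of fixed length to each *K. lactis* gene. The deposited values used here are these raw counts per gene. Deposited rlog tables gave orthology only, and the tables of fold changes and p-values from the authors' own comparisons were not used. Rows for reads without a gene were left out of library sizes. Counts of the one-to-one pairs were joined into 1 matrix, scaled by TMM and tested with the quasi-likelihood test of edgeR 4.0.16 in R 4.3.3, with Benjamini-Hochberg adjustment over 3781 pairs. No length or GC correction was made. A pair entered if either member had at least 2 counts in 3 of its 4 libraries. PKA-WT libraries were fitted alone and deletion strains in a fit of all DMSO cultures. Species differences with 1-NM-PP1 came from a fit of the PKA-AS inhibitor libraries alone. Their change from DMSO came from a fit of 16 libraries with an interaction of species and treatment. Replicates are separate cultures of 1 strain, so p-values measure the spread between cultures. DMSO and inhibitor portions with the same number came from a divided culture. The main fit did not pair same-numbered cultures across the species. Alternatives were DESeq2 1.42.0 and its size factors, library totals, limma 3.58.1 on ranks, other filters and thresholds, a replicate block and leaving out each library. The fit was tested on simulated data. Members and gene lists were chosen with earlier results of these data known. Named were the 10 largest called differences in each direction (mean of at least 10 counts in both species, no overlap), the 10 highest pairs in each species, the 3 highest pairs of each list with at least 5 tested pairs, the 5 highest pairs in each direction with 3 counts or fewer in all libraries of the other species, PKA subunits, and the 5 pairs nearest in rank among the 100 highest. Some genes that this rule selected are not reported here. Sequences came from the RefSeq R64 genome with its annotation, which matched all 3802 pairs.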

Additional observations from a re-analysis of the deposited data

Results flagged for a closer look

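Single libraries stood apart from the other 3 of their species in 6 of 158 groups of 4 values tested, by the gap to the nearest library over the whole range, where chance gives about 1 in 20. *XYL2* had 1.23 CPM in *S. cerevisiae* culture 2017 and 0 in the others. The median percentile of mitochondrial protein import was 71.2 in *S. cerevisiae* culture 3 against 76.8 to 77.9, that of trehalose and glycogen 13.3 in *S. cerevisiae* culture 1 against 20.6 to 22.1, and that of histones and replication 53.0 in *K. lactis* culture 1 against 49.5 to 49.8. For autophagy it was 19.1 in *S. cerevisiae* culture 1 against 21.0 to 21.3, and 24.5 in *K. lactis* culture 3 against 16.5 to 17.8. Among the PKA-AS libraries of *K. lactis* with DMSO, culture 3 is also the one nearest to the inhibitor libraries.

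The species difference changed with 1-NM-PP1 in 7 of 46 pairs tested (edgeR test of the interaction, 4 libraries per species and treatment). These were the named pairs with the largest differences, the highest levels or a level at the floor in 1 species, and PKA subunits. That is 15.2%, near the 15.5% of all 3781 pairs, so the count is no result about these pairs. The change was -7.63 for *HSP12*, -6.87 for *CTT1*, -4.39 for *YPL113C*, -4.35 for *FMP16* and -3.19 for *GUT2*, all toward *S. cerevisiae*. It was 4.12 for *EFM1* and 10.25 for *STE4*, both toward *K. lactis*, the latter a fitted value that depends on the prior count.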

How the results depend on the processing

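The counts of called pairs depended on the threshold. A test against a difference of 2 (edgeR's glmTreat) called 393 pairs higher in *K. lactis* and 274 in *S. cerevisiae*, and a threshold of 1 called 1130 and 1070, against 673 and 560. With limma on ranks, where a call needed a shift of 25 percentile points, the counts were 720 and 707. Leaving out 1 library gave 649 to 722 and 536 to 596. In PKA-WT it gave 207 to 585 and 62 to 399 against 507 and 325, where an arm left with 1 library was assumed to vary like the other. With the replicate number as a block the counts were 679 and 559, those of PKA-WT 440 and 275, and those of the change with 1-NM-PP1 268 and 346. Deviations of same-numbered DMSO cultures of the species had r of 0.0916, -0.0137, 0.0881 and 0.033, against -0.111 to 0.0476 for cultures with other numbers. These small values cannot decide whether same-numbered cultures of the species share an effect. DMSO and inhibitor portions of a number share a culture. Medians of lists over the fits without 1 library ran 0.63 to 0.82 for the mitochondrial ribosomal proteins list, -0.78 to -0.15 for the mitochondrial ATP synthase list, -0.47 to 0.56 for the cytoplasmic ribosomal proteins list, -0.60 to 0.057 for the translation factors list, -0.85 to -0.21 for the vacuolar ATPase list, 0.36 to 0.70 for the PKA pathway list and -0.44 to -0.26 for the secretory pathway list. With a mean of 10 counts in both species the medians were 1.01 for the TCA cycle, -0.24 for fermentation, 0.48 for gluconeogenesis, -0.48 for mating, 0.87 for the PKA pathway and 0.41 for autophagy. Without the 2017 cultures the PKA pathway was at 0.71 and autophagy at 0.60, and with library totals the secretory pathway was at -0.19. Of 139 named pairs, 69 were called; 7 of these lost the call under some setting, 6 others gained one, and no called pair changed sign. The sign changed for 8 pairs without a call. Without 1 library their differences ran -0.77 to 0.60 for *DBP2*, -0.29 to 0.025 for *EBP2*, -1.49 to 0.13 for *HHF2*, -0.44 to 0.41 for *RPP1B*, -0.23 to 0.079 for *SSH1*, -0.022 to 0.24 for *THS1*, -0.13 to 0.31 for *TOM5* and -0.23 to 0.35 for *TPK2*. With the block *DBP2* was at -0.11, *RPP1B* at 0.063 and *TPK2* at -0.12. In the fit of all DMSO cultures *DBP2* was at -0.062 and *TPK2* at -0.011. *SSH1* was at 0.072 with library totals, 0.048 with a mean of 10 counts and 0.031 without the 2017 cultures, where *TPK2* was at -0.099. For these values the cause was not tested. Depth limits what can be said of the 100 called pairs with at most 3 counts per library in a species, for which only bounds were given.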
